A study of Mus musculus with 6 samples.

Results

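The soleus of mice kept with the hind limbs lifted off the ground was compared with the soleus of control mice, gene by gene. Of the 6 arrays of the study, 4 entered this comparison: 2 labelled control soleus and 2 labelled hindlimb suspension soleus. The other 2, of suspended mice that also received electroacupuncture, were used only for the estimate of the spread. All mice were labelled as male C57BL/6 of 8 weeks, with no transgene or other agent named in either group, and the labels give neither the length of suspension nor the housing of the controls. Total RNA extracted with Trizol was made into biotin-labelled cRNA and hybridized to Affymetrix Mouse Gene 1.0 ST arrays, which read each gene through a set of probes grouped into a transcript cluster. Clusters naming 1 gene were kept, with the brightest cluster for a gene that had several, so that 19938 genes were compared.

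By its title the study concerned the atrophy that suspension brings about and what electroacupuncture does to it. The comparison made here sets suspension without electroacupuncture against control. Anything else that differed between these groups, such as housing, cannot be told apart from suspension. No label ties the 2 arrays of a group to different animals, and the design text mentions duplicate hybridizations and no more, so every p-value measures the spread between arrays. Values are log2 signals, so a difference of 1 is a 2-fold change. Differences are suspension minus control with the standard error (SE) of limma's linear model, and a gene is said to have risen or fallen only where the Benjamini-Hochberg adjusted p of that model, over all 19938 genes, was below 0.05. Differences were taken within a gene, since probes differ in brightness, and a signal was otherwise set only against a background percentile, as a rough guide. In a whole muscle, fewer cells of a type and less RNA per cell cannot be told apart.

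The soleus is a postural calf muscle made largely of slow and oxidative fibres that are active whenever the animal stands. Such activity keeps up a slow contractile programme, dense mitochondria and capillaries, and signals that read stretch at the Z-disc, the disc that anchors the thin filaments. Unloading is known to shrink the fibres through protein breakdown and reduced synthesis and to shift them toward faster types, in which other myosins, calcium-handling proteins and glycolytic enzymes prevail.

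A pair of sequences is printed for genes that passed the test. The first is the stretch before the start of Chac1, a glutathione-degrading enzyme gene and the strongest riser among targets of ATF4, the transcription factor of the amino acid shortage response. It spans chr2:119350992-119351241 on the plus strand of GRCm38.p6, in the RefSeq promoter table. The capitals mark the only match, on either strand, to the ATF4 composite element TGATGNAA, which lies 193 to 186 bases before the start on the reverse strand.
Chac1 promoter: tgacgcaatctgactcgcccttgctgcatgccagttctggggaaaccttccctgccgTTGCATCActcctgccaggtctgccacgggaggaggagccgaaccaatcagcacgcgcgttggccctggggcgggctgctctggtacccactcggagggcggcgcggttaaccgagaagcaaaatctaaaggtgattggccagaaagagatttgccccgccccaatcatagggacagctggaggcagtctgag
The same element was in at least 1 promoter of 1056 of the 27025 genes in that table (3.91%), and of 8 of the 28 listed ATF4 response genes that have a promoter there. Of the 32851 promoters, some of which belong to the same gene, 3.45% held it. Whether the element took part in the rise of Chac1 was not tested.

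The second concerns the only microRNA locus that passed the test among 291 measured (1.05% of all genes passed), Mir181b-2. Its mature strands in RefSeq lie on the plus strand of GRCm38.p6, at chr2:38853845-38853868 and chr2:38853883-38853904, and capitals mark the seed, bases 2 to 8, which pairs with target messages.
mmu-miR-181b-5p: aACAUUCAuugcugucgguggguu
mmu-miR-181b-2-3p: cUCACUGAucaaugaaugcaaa
The signal of the locus was 3.62 and 3.74 on the control arrays and 4.75 and 5.21 on the suspension arrays. The suspension arrays were the higher pair, by 1.30 ± 0.20 (adjusted p = 0.0234 in limma). Both control values lay just above 3.50, the 95th percentile of 1015 olfactory receptor genes that served as a measure of background. Both suspension values lay farther above it. The locus signal does not give the level of either mature strand.

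A small share of the measured genes passed the test between suspension and control. The most marked rises were in Ddit4l, an inhibitor of mTOR signalling, in fast-fibre genes such as Actn3 and Myh4, and in Chac1. The most marked falls were in Chad and Kera, matrix genes of tendon, cartilage and cornea, in Bdh1, an enzyme of ketone body use, and in the nuclear receptor gene Nr4a3. In all, 209 genes, or 1.05% of those tested, passed the limma test at adjusted p 0.05: 107 (0.537%) were higher and 102 (0.512%) lower in suspension. Of these, 56 risers and 54 fallers changed at least 2-fold, 9 genes at least 4-fold, and the smallest change that passed was 0.65. The median change was 1.02 among the risers and -1.03 among the fallers. At an unadjusted limma p below 0.05 there were 2537 of the 19938 genes.

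**Figure D1:**
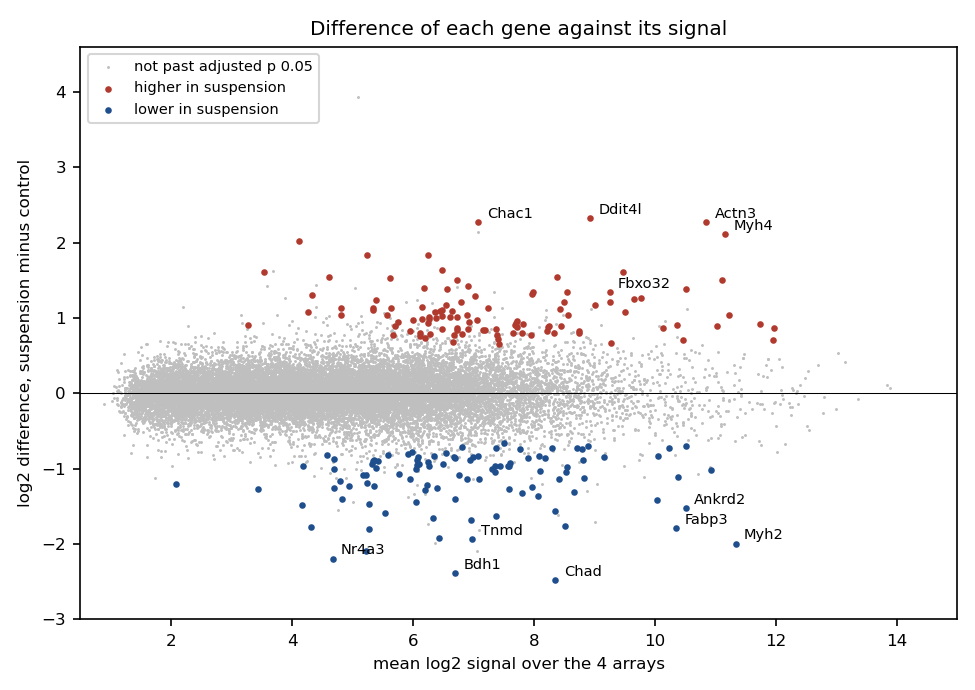
Suspension minus control difference (log2) of each of 19938 genes, on the y axis, against its mean log2 signal over the 4 arrays, on the x axis. Red points (107) and blue points (102) are genes higher and lower in suspension past adjusted p 0.05, and gray points did not pass. Changes in both directions occur across the range of mean signals, with Chad the lowest called point at -2.48 and Ddit4l the highest at 2.32.

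Single arrays of a group differed over genes about as much as the group means did. A mean of 2 arrays varies less than 1 array, so the SDs and counts that follow are not on one scale. The SD over genes of the difference was 0.36 between the control arrays and 0.29 between the suspension arrays, against 0.29 between the group means. At least 2-fold differences numbered 242 between the control arrays, 142 between the suspension arrays and 174 between group means. All 209 genes that passed had suspension arrays outside the range of the control arrays, which held for 39.8% of all genes (21.3% higher, 18.5% lower). The number of calls rested on single arrays: 228 genes passed without control array 1, 301 without control array 2, 16 without suspension array 1 and 42 without suspension array 2. Without control array 2 the split was 207 higher and 94 lower. Leaving out either array with electroacupuncture, which enters for the spread alone, left 67 calls, and 102 passed with replicate number as a block. With each transcript cluster of the table, named or not, tested by itself, 1 gene passed, Bdh1. All 209 kept their direction in each of these settings, which was fixed in advance. Their groups did not overlap, so leaving out 1 array could not turn a sign, and the other settings left the differences unchanged.

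**Figure D2:**
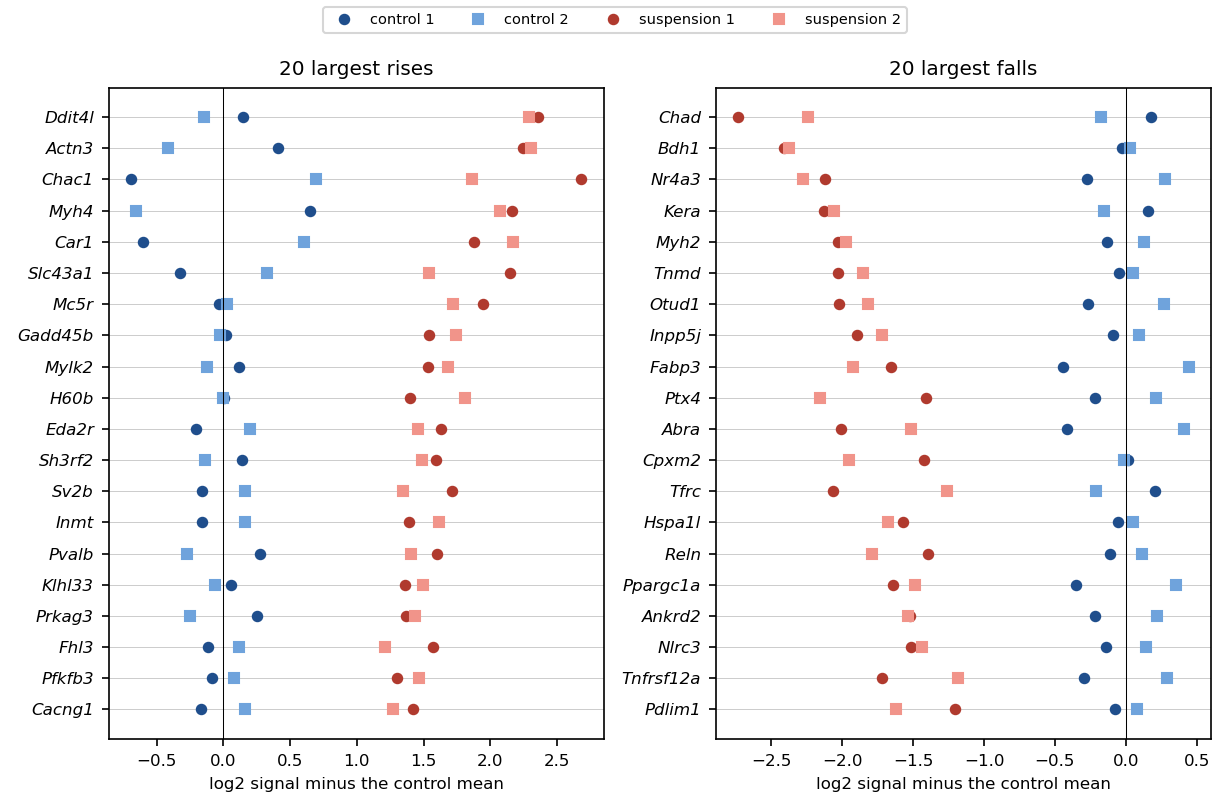
Log2 signal minus the control mean (x axis) on each of the 4 arrays, for the 20 largest rises (left) and 20 largest falls (right) past adjusted p 0.05. Blue symbols are control arrays, red symbols suspension arrays. In each gene both suspension arrays lie on one side of both control arrays, which holds for all 209 genes that passed. The control arrays of Chac1, Myh4 and Car1 lie farther apart than those of Gadd45b or Bdh1.

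Several fast-fibre genes rose. Of 17 measured genes of the fast contractile and sarcoplasmic apparatus, 6 rose and 1 fell, and the median difference of the list was 0.53, beside 0.006 over all genes. Actn3, the actinin that crosslinks thin filaments in the Z-disc of fast fibres, had signals of 10.13 and 9.30 on the control arrays and 11.96 and 12.02 on the suspension arrays. The control arrays lay well apart and both below the suspension arrays, and the gene rose by 2.28 ± 0.23 (adjusted p = 0.00618 in limma), or 4.84-fold. Mylk2, the kinase that phosphorylates the regulatory myosin light chain of skeletal muscle, read 8.78 and 8.54 on the control arrays and 10.20 and 10.35 on the suspension arrays. Here both pairs were tight, and the rise was 1.61 ± 0.15 (adjusted p = 0.00496).

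The fast myosin heavy chains did not move together. Myh4, the heavy chain of the fastest IIB fibres, read 10.76 and 9.46 on the control arrays and 12.27 and 12.18 on the suspension arrays. Control array 2 was the lowest, the suspension arrays nearly equal, and the rise was 2.12 ± 0.33 (adjusted p = 0.0269). Myh1, the IIX heavy chain, went from 11.54 ± 0.10 to 12.40 ± 0.19 (mean ± SD, n = 2), a rise of 0.86. Myh2, the heavy chain of the oxidative IIA fibres, moved the other way: its signals were 12.21 and 12.47 on the control arrays and 10.31 and 10.37 on the suspension arrays, so that both suspension arrays were lower, and it fell by 2.00 ± 0.29 (adjusted p = 0.0210). These heavy chain genes are alike in sequence, and how far probes of one read another was not tested. Pvalb, the calcium buffer of fast fibres, rose by 1.50 ± 0.19, and Myoz1, a Z-disc protein of fast fibres that binds calcineurin, by 1.04 ± 0.14. Fast troponin I, Tnni2, differed by 0.25 ± 0.13 and did not pass (adjusted p = 0.473).

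Slow-fibre genes were mostly lower without passing. In the list of 14 slow contractile and sarcoplasmic genes, 12 differences were below 0, where 48.86% of all genes lay below 0, and the median was -0.54. The groups did not overlap in 11 genes below and 1 above, beside 18.5% and 21.3% of all genes, while 1 gene passed the test. That gene was Casq2, the calsequestrin isoform of slow fibres and heart, which stores calcium in the sarcoplasmic reticulum. It read 8.27 and 8.16 on the control arrays and 6.95 and 6.95 on the suspension arrays, with nearly equal suspension arrays, and fell by 1.27 ± 0.13 (adjusted p = 0.00618). The slow regulatory light chain gene Myl2 read 10.94 and 11.91 on the control arrays and 9.99 and 10.15 on the suspension arrays. Its difference of -1.35 ± 0.35 was larger than that of Casq2, but the control arrays lay far apart and it did not pass (adjusted p = 0.123). The essential light chain gene Myl3 (-0.78 ± 0.17, adjusted p = 0.0873) and slow troponin I, Tnni1 (-0.82 ± 0.23, adjusted p = 0.166), also had groups that did not overlap. Myh7, the slow heavy chain, read 11.62 and 12.02 on the control arrays and 11.68 and 11.68 on the suspension arrays. Both suspension arrays lay between the control arrays, and the difference was -0.14 ± 0.18 (adjusted p = 0.815), turning to 0.053 without control array 2.

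**Figure D3:**
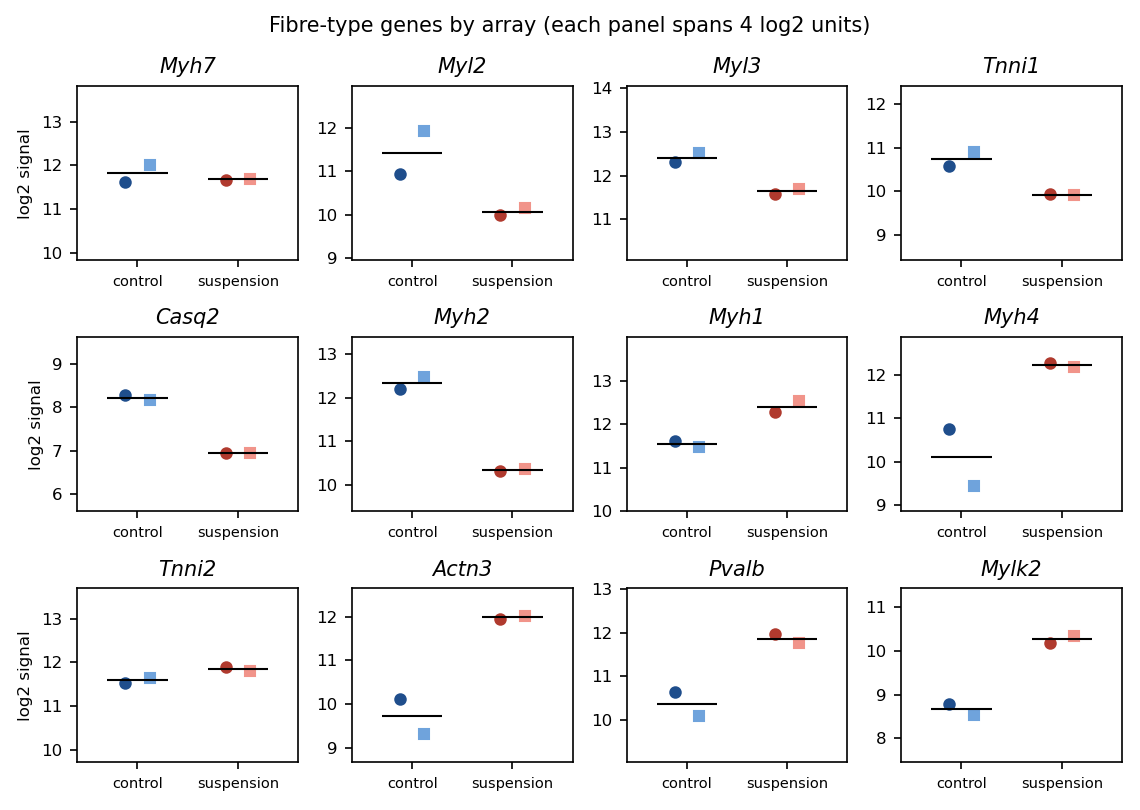
Log2 signal (y axis) of 12 fibre-type genes on the 2 control arrays (blue) and the 2 suspension arrays (red), with the group mean as a line; circles are array 1 and squares array 2 of each group, and each panel spans 4 log2 units. Actn3, Mylk2, Pvalb, Myh4 and Myh1 are higher in suspension, Casq2 and Myh2 lower, and the suspension arrays of Myh7 lie within the control range.

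Without suspension array 1 the fast list held 1 riser and the slow list 0 genes past the test, and without suspension array 2 they held 2 risers and 1 faller. The medians kept their sign, at 0.50 and 0.43 for the fast and -0.45 and -0.62 for the slow list.

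Some genes on none of these lists also passed. Those named here were picked out after their values were seen, except Myom2. Myom2, the M-band protein of fast fibres that links thick filaments in the middle of the sarcomere, rose by 1.27 ± 0.16 (adjusted p = 0.0122), from 9.13 ± 0.19 to 10.40 ± 0.24 (mean ± SD, n = 2). Its partner gene Myom1, present in all fibre types, rose by 0.86 ± 0.14. Ky, a muscle protein whose loss bends the spine of mice, rose by 1.04 ± 0.15 (adjusted p = 0.0189). Apobec2, a muscle-restricted member of the cytidine deaminase family, rose by 0.92 ± 0.13. Smtnl2, a smoothelin-like gene, rose by 1.21 ± 0.19. In each of these genes both suspension arrays lay above both control arrays, but no gene passed with groups that overlapped, so this adds nothing to the call. Sptb, the erythroid-type beta spectrin that muscle also uses under its membrane, rose by 0.94 ± 0.16, and Sorbs3, the adhesion adaptor vinexin, by 0.94 ± 0.14. Enah, an actin filament elongation factor, fell by 0.96 ± 0.16.

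Several genes that link membrane excitation to calcium release rose. Of 19 measured genes of excitation-contraction coupling, 3 rose and 0 fell (median 0.17). Ryr1, the calcium release channel, read 10.55 and 10.61 on the control arrays and 11.47 and 11.47 on the suspension arrays, with tight pairs, and rose by 0.89 ± 0.12 (adjusted p = 0.0183). The other two code for parts of the voltage sensor that opens it: Cacng1, its gamma subunit, rose by 1.35 ± 0.16 (adjusted p = 0.0102), from 7.70 and 8.04 to 9.29 and 9.14, and Cacna1s, its pore subunit, by 0.90 ± 0.14 (adjusted p = 0.0251). Without either suspension array in turn, 0 of the 3 passed.

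Among 21 channels and pumps of the muscle membrane, 2 rose and 1 fell (median 0.27). Clcn1, the chloride channel that steadies the resting membrane, rose by 0.92 ± 0.13. Slc8a3, a sodium-calcium exchanger of muscle and brain, read 6.08 and 6.14 on the control arrays and 7.10 and 7.30 on the suspension arrays and rose by 1.09 ± 0.14 (adjusted p = 0.0128). Atp1b4, which resembles the beta subunits of the sodium pump, read 5.84 and 5.83 on the control arrays and 4.73 and 4.54 on the suspension arrays and fell by 1.20 ± 0.15 (adjusted p = 0.0127). The pairs of both genes were tight and far apart. Further membrane genes on no list, noticed after their values were seen, were the water channel Aqp4 of fast fibres (a rise of 0.90 ± 0.17), the sodium-potassium-chloride cotransporter Slc12a2 (0.97 ± 0.15), the potassium channel auxiliary gene Lrrc38 (0.99 ± 0.16) and the ADP-ribosyltransferase-like Art3 (0.80 ± 0.13). Homer2, a scaffold that binds calcium channels and NFAT, fell by 1.32 ± 0.17 (adjusted p = 0.0132), from 8.63 and 8.29 to 7.01 and 7.25.

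Calcineurin, a phosphatase switched on by calcium, moves NFAT factors into the nucleus and is known to favour slow-fibre genes. Of 26 genes of this pathway, 3 rose and 0 fell (median 0.15). The list did not move one way: differences ran from -1.30, in a gene that did not pass, to 1.17. At an unadjusted limma p below 0.05, 6 were higher and 5 lower. Nfatc2, one of the NFAT factors, read 5.96 and 5.97 on the control arrays and 7.18 and 7.10 on the suspension arrays. The control arrays were nearly equal, and the rise was 1.17 ± 0.13 (adjusted p = 0.00674). Ppp3ca, the catalytic subunit, rose by 0.83 ± 0.15, and Myoz1 was the third. Prkcq, the protein kinase C of muscle and T cells, picked out after its values were seen, read 8.38 and 8.47 on the control arrays and 9.60 and 9.61 on the suspension arrays and rose by 1.18 ± 0.12 (adjusted p = 0.00626). Ramp1, the partner that makes the receptor for the nerve peptide CGRP, also noticed afterwards, rose by 1.13 ± 0.13 (adjusted p = 0.0102). Of the 20 genes of the neuromuscular junction and the response to lost nerve supply, 1 rose, Gadd45a, described with the stress genes, and the receptor kinase gene Musk differed by 0.14 ± 0.17 (adjusted p = 0.802).

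Of 26 fibre-type and myogenic transcription factors, 1 rose, Eya4, a coactivator of myogenic homeobox factors, by 1.01 ± 0.16 (adjusted p = 0.0275), and the list median was 0.22. Myod1, the myogenic factor more abundant in fast muscle, read 6.40 and 6.02 on the control arrays and 6.84 and 7.04 on the suspension arrays. Its groups did not overlap, as in 39.8% of all genes, and with 0.73 ± 0.16 it did not pass (adjusted p = 0.0856). Tead4 (0.71 ± 0.16, adjusted p = 0.0913) and Myog (0.11 ± 0.33, adjusted p = 0.940) did not pass, and the groups of Myog overlapped, with a difference near 0 beside its error.

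Genes of protein breakdown rose in a selected set. Of 32 ubiquitin ligases linked to muscle loss and their partners, 5 rose and 1 fell (median 0.20). Fbxo32, the F-box protein atrogin-1 that recruits muscle proteins to a ubiquitin ligase, read 8.39 and 8.77 on the control arrays and 9.99 and 9.86 on the suspension arrays. Both suspension arrays were above both controls, and the rise was 1.35 ± 0.15 (adjusted p = 0.00854), or 2.54-fold. Trim63, the ring-finger ligase MuRF1 that is paired with it in most accounts of atrophy, read 8.04 and 8.35 on the control arrays and 8.61 and 8.10 on the suspension arrays. Suspension array 2 lay within the control range, and the difference was 0.16 ± 0.18 (adjusted p = 0.805), turning to -0.10 without suspension array 1.

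Kelch adaptors for cullin ligases moved in both directions. Klhl33 read 6.25 and 6.13 on the control arrays and 7.55 and 7.68 on the suspension arrays, with both pairs tight, and rose by 1.43 ± 0.13 (adjusted p = 0.00513). Klhl38 rose by 1.04 ± 0.18 (adjusted p = 0.0345). Klhl34, on no list and picked out after its values were seen, fell by 1.09 ± 0.13 (adjusted p = 0.0118), from 7.29 and 7.32 to 6.30 and 6.13. The F-box gene Fbxo31 rose by 1.25 ± 0.19 and the chain-elongating ligase gene Ube4a by 0.78 ± 0.14. Otud1, a deubiquitinase, read 7.12 and 7.67 on the control arrays and 5.37 and 5.58 on the suspension arrays. It was lower on both suspension arrays and fell by 1.92 ± 0.21 (adjusted p = 0.00849), 3.79-fold. Without suspension array 1, only Klhl33 of the 6 kept the call, and without suspension array 2, 2 risers and 1 faller of the list passed.

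The proteasome itself showed no gene past the limma test in either direction: 0 of 36 subunit genes passed. At an unadjusted limma p below 0.05 there were 4, beside 2537 of all 19938 genes. The median was 0.05, turning to -0.066 without control array 1, and the groups did not overlap in 9 genes above and 7 below, beside 21.3% and 18.5% of all genes. Autophagy and lysosome genes had 1 riser of 29 (median 0.12). It was Map1lc3a, a protein that coats the forming autophagosome, which read 8.30 and 8.37 on the control arrays and 9.25 and 9.07 on the suspension arrays and rose by 0.83 ± 0.13 (adjusted p = 0.0249). Of 35 listed targets of the FoxO factors, 4 rose and 0 fell (median 0.16): Fbxo32, Fbxo31, Map1lc3a and Gadd45a, of which 0 passed without suspension array 1. The letters GTAAACA, searched on both strands, were in the 250 bases before the start of 0 of the 2 of these genes with a tabulated promoter. They were there in 1 of the 26 list genes with a promoter and in 3.54% of all genes in the table.

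Genes that restrain growth signalling included the largest rise past the test. Ddit4l, also called REDD2, read 7.91 and 7.63 on the control arrays and 10.12 and 10.06 on the suspension arrays. The pairs lay far apart with little spread inside them, and the rise was 2.32 ± 0.18 (adjusted p = 0.00307). Inpp5j, a phosphatase that removes a phosphate from the lipid messengers of insulin signalling, read 6.09 and 6.27 on the control arrays and 4.28 and 4.46 on the suspension arrays and fell by 1.81 ± 0.17 (adjusted p = 0.00513), 3.51-fold. These were the 2 genes past the test among 39 of insulin, IGF and mTOR signalling, whose median was 0.05. The median was 0.00 without control array 1 and -0.02 without suspension array 1. Castor2, of the family that senses arginine for mTOR, was picked out after its values were seen and rose by 1.12 ± 0.16 (adjusted p = 0.0210).

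Eef2k, the kinase that slows translation elongation, read 6.21 and 6.38 on the control arrays and 7.21 and 7.10 on the suspension arrays and rose by 0.86 ± 0.13 (adjusted p = 0.0251), the 1 gene past the test of 25 in initiation and elongation. Eif4ebp1, the repressor of initiation that mTOR inactivates, read 7.69 and 8.11 on the control arrays and 8.98 and 8.65 on the suspension arrays and missed the threshold (difference 0.92 ± 0.18, adjusted p = 0.0517). Among cytosolic ribosomal proteins, 0 of 30 passed the limma test. At an unadjusted limma p below 0.05 there were 8, all higher, beside 2537 of all 19938 genes. Of their differences 27 were above 0 and 3 below 0 (median 0.23), where 48.86% of all genes lay below 0. Among ligands and receptors of growth control, Acvr1b, a receptor for activins and related ligands, noticed after its values were seen, read 5.58 and 5.57 on the control arrays and 6.89 and 6.56 on the suspension arrays. Both suspension arrays were higher, and it rose by 1.15 ± 0.17 (adjusted p = 0.0209). Rgma, a coreceptor for bone morphogenetic proteins, likewise noticed afterwards, rose by 0.85 ± 0.13. Myostatin, Mstn, read 3.34 and 3.51 on the control arrays and 3.94 and 4.02 on the suspension arrays, near background, and its difference of 0.56 ± 0.16 did not pass (adjusted p = 0.166). Neither did those of its antagonist Fst (0.42 ± 0.14, adjusted p = 0.253) or of Igf1 (-0.25 ± 0.27, adjusted p = 0.779, turning to 0.22 without suspension array 2).

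A few genes of growth arrest rose. Of 24 p53 and growth arrest genes, 4 rose and 0 fell, though the list median was 0.06. Gadd45b, a stress protein that binds growth-control kinases, read 5.68 and 5.64 on the control arrays and 7.21 and 7.41 on the suspension arrays, and its rise of 1.64 ± 0.13 (adjusted p = 0.00361) was many times its error. Gadd45a, a relative known for its rise in denervated and unloaded muscle, read 4.61 and 4.91 on the control arrays and 6.34 and 5.67 on the suspension arrays and rose by 1.24 ± 0.22 (adjusted p = 0.0418). Suspension array 1 was the highest and array 2 lay between it and the controls. Eda2r, a receptor of the TNF family, read 3.64 and 4.04 on the control arrays and 5.47 and 5.30 on the suspension arrays, from near background, and rose by 1.54 ± 0.28 (adjusted p = 0.0418). Trp53inp1, a p53 target that also acts in autophagy, rose by 1.00 ± 0.18. Without suspension array 1, 1 gene of this list passed, and without suspension array 2, 2 did.

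The amino acid response did not move as a block. Of 31 ATF4 response genes, 1 rose and 1 fell, with a median of -0.06 that turned to 0.10 without control array 2. Chac1, whose promoter is printed above, read 5.25 and 6.64 on the control arrays and 8.63 and 7.81 on the suspension arrays. The control arrays lay far apart, the suspension arrays were both higher, and the rise was 2.27 ± 0.42 (adjusted p = 0.0471), or 4.84-fold. Slc38a2, a sodium-coupled carrier of neutral amino acids, read 9.52 and 9.66 on the control arrays and 8.73 and 8.74 on the suspension arrays and fell by 0.85 ± 0.12 (adjusted p = 0.0210). Its tabulated promoter did not hold the element. Atf3, another ATF4 target, read 6.23 and 7.12 on the control arrays and 5.80 and 5.11 on the suspension arrays, and with a difference of -1.22 ± 0.33 it did not pass (adjusted p = 0.148). Slc43a1, a carrier of branched-chain and other large neutral amino acids, read 4.99 and 5.65 on the control arrays and 7.47 and 6.86 on the suspension arrays. It rose by 1.84 ± 0.26 (adjusted p = 0.0189), 3.58-fold. Among genes of amino acid catabolism, Gpt2, the mitochondrial enzyme that makes alanine from pyruvate, read 6.23 and 6.54 on the control arrays and 7.67 and 7.69 on the suspension arrays and rose by 1.29 ± 0.15 (adjusted p = 0.0102), the only 1 of 33 to pass.

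In the response to misfolded protein in the endoplasmic reticulum, Hspa5, its main chaperone, read 9.19 and 9.32 on the control arrays and 8.47 and 8.27 on the suspension arrays and fell by 0.88 ± 0.13 (adjusted p = 0.0228). Selenos, a selenoprotein of the export machinery, rose by 1.02 ± 0.16 (adjusted p = 0.0286), and these were the 2 past the test of 28 (median -0.21). Of 31 glucocorticoid-induced genes 1 rose: Fkbp5, a cochaperone of the glucocorticoid receptor, by 0.78 ± 0.15 (adjusted p = 0.0468), from 5.99 and 5.78 to 6.77 and 6.56. The median of that list was 0.24 and turned to -0.05 without suspension array 1. The glucocorticoid response element was in the tabulated promoters of 2 of the 28 list genes with one, against 0.44% of all genes in the table. The promoter of Fkbp5 did not hold it. Glul, the glutamine synthetase gene, did not pass (0.75 ± 0.15, adjusted p = 0.0649), with groups that did not overlap, as in 39.8% of all genes.

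Some genes of oxidative fuel use fell. Of 27 genes that take up or oxidize fatty acids, 4 fell and 0 rose, and the median was -0.39. Fabp3, the fatty acid carrier of heart and oxidative muscle, read 10.80 and 11.69 on the control arrays and 9.59 and 9.32 on the suspension arrays. Both suspension arrays lay well below the lower control, and the fall was 1.79 ± 0.25 (adjusted p = 0.0189), 3.46-fold. The 3 enzymes of mitochondrial beta-oxidation on the list that fell did so by less: the thiolase gene Acaa2 by 0.83 ± 0.15, the enoyl-CoA isomerase gene Eci1 by 0.73 ± 0.13 and Hadha, the alpha subunit of the trifunctional protein, by 0.70 ± 0.13. Of the 4, 0 passed without either suspension array in turn.

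A pair of ketone body enzymes fell. Bdh1, which interconverts the ketone bodies hydroxybutyrate and acetoacetate, read 7.87 and 7.92 on the control arrays and 5.49 and 5.52 on the suspension arrays. The arrays within each group were nearly equal, and it fell by 2.39 ± 0.13 (adjusted p = 0.000543), 5.25-fold, the smallest adjusted p of all genes. Oxct1, which activates acetoacetate for use as fuel, went from 9.06 ± 0.08 to 8.02 ± 0.17 (mean ± SD, n = 2) and fell by 1.04 ± 0.14 (adjusted p = 0.0160). They were the 2 past the test of 22 genes of ketone body and lactate handling, whose median was -0.03, turning to 0.05 without control array 2. Pdp1, a phosphatase that switches pyruvate dehydrogenase on, is on the same list and did not pass (difference 0.79 ± 0.16, adjusted p = 0.0677). Its groups did not overlap, as in 39.8% of all genes.

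Regulators of oxidative metabolism fell too. Ppargc1a, the coactivator PGC-1alpha, read 8.79 and 9.49 on the control arrays and 7.50 and 7.65 on the suspension arrays. Both suspension arrays were lower, and it fell by 1.56 ± 0.22 (adjusted p = 0.0189). Ppara, a fatty-acid-sensing nuclear receptor, read 7.23 and 7.70 on the control arrays and 6.30 and 6.36 on the suspension arrays and fell by 1.14 ± 0.17 (adjusted p = 0.0234). Of 24 genes of this list these 2 passed (median -0.19), and Esrrg, an oestrogen-related receptor, differed by -0.64 ± 0.17 (adjusted p = 0.140). Without suspension array 1 or without array 2, 0 passed.

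Most respiratory chain genes were slightly lower in suspension, each short of the threshold. Of 50 respiratory chain genes, 0 passed the limma test. At an unadjusted limma p below 0.05 there were 17, all lower, beside 2537 of all 19938 genes in either direction. Differences below 0 numbered 46, with a median of -0.26, where 48.86% of all genes lay below 0. Cycs, the electron carrier cytochrome c, read 12.09 and 12.10 on the control arrays and 11.37 and 11.45 on the suspension arrays. Its groups lay clearly apart, and with -0.68 ± 0.13 it came close to the threshold (adjusted p = 0.0588). Among 19 citrate cycle genes 0 passed the limma test and 9 were lower at an unadjusted p below 0.05 (median -0.29).

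A few accessory genes of the mitochondrion, picked out after their values were seen, did fall. Coq3, an enzyme of coenzyme Q synthesis, fell by 0.96 ± 0.13 (adjusted p = 0.0160) and Chchd4, the oxidoreductase of intermembrane-space import, by 1.09 ± 0.14 (adjusted p = 0.0129). Chchd4 read 5.72 and 5.73 on the control arrays and 4.64 and 4.63 on the suspension arrays, with nearly equal pairs. Ndufaf1, an assembly factor of complex I, fell by 0.83 ± 0.13, and Rtn4ip1, a mitochondrial oxidoreductase, by 0.97 ± 0.16. On the list of import, proteases and dynamics, Mtfp1, a fission protein, was the 1 of 33 past the test, with a fall of 0.89 ± 0.15.

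Energy transfer and glycolysis held changes in both directions. Ckmt2, the mitochondrial creatine kinase of muscle, read 10.80 and 11.08 on the control arrays and 9.81 and 9.85 on the suspension arrays and fell by 1.11 ± 0.15 (adjusted p = 0.0189). Prkag3, the AMP-sensing kinase subunit found in fast glycolytic fibres, read 5.74 and 5.24 on the control arrays and 6.86 and 6.92 on the suspension arrays and rose by 1.40 ± 0.19 (adjusted p = 0.0174). Of 32 genes of glycolysis and glycogen, 2 rose and 1 fell (median 0.23). Pfkfb3, which makes the activator of phosphofructokinase, rose by 1.38 ± 0.21, from 5.79 and 5.96 to 7.17 and 7.34. Pygm, the muscle glycogen phosphorylase, rose by 0.71 ± 0.13 (adjusted p = 0.0437). Ppp1r3c, a phosphatase subunit that favours glycogen synthesis, read 9.44 and 9.20 on the control arrays and 7.99 and 8.02 on the suspension arrays and fell by 1.31 ± 0.19 (adjusted p = 0.0189). Carns1, which makes carnosine, a buffer of fast muscle, was noticed afterwards and rose by 0.97 ± 0.16.

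Among 29 genes of iron, haem, zinc and carbonic anhydrase, 2 fell and 1 rose (median 0.21). Tfrc, the transferrin receptor that brings iron into the cell, read 7.36 and 6.95 on the control arrays and 5.09 and 5.90 on the suspension arrays. The suspension arrays were lower but apart from each other, and the fall was 1.66 ± 0.25 (adjusted p = 0.0234). Alas1, the first enzyme of haem synthesis, fell by 1.03 ± 0.18 (adjusted p = 0.0414). Car1, a carbonic anhydrase, read 2.50 and 3.70 on the control arrays and 4.98 and 5.27 on the suspension arrays and rose by 2.02 ± 0.33 as measured (adjusted p = 0.0320). Control array 1 was below the background percentile of 3.50, and with it set to the percentile Car1 was at least 2.88-fold higher.

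Several genes that respond to stretch and activity fell. Of 28 genes of the stretch-sensing Z-disc and titin complex, 3 fell and 1 rose (median -0.29). Ankrd2, a titin-binding ankyrin repeat protein of slow muscle, read 11.06 and 11.49 on the control arrays and 9.76 and 9.74 on the suspension arrays. The suspension arrays were nearly equal and below both controls, and it fell by 1.53 ± 0.16 (adjusted p = 0.00641). Pdlim1, a PDZ and LIM protein that binds actinin, read 10.66 and 10.81 on the control arrays and 9.53 and 9.11 on the suspension arrays and fell by 1.41 ± 0.19 (adjusted p = 0.0172). Flnc, the muscle filamin that is unfolded by tension, fell by 0.73 ± 0.13. Fhl3, a LIM protein known as a partner of MyoD, read 9.70 and 9.94 on the control arrays and 11.39 and 11.03 on the suspension arrays and rose by 1.39 ± 0.21 (adjusted p = 0.0234).

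Csrp3, the muscle LIM protein, read 9.53 and 10.20 on the control arrays and 8.58 and 7.72 on the suspension arrays. Its groups did not overlap, as in 39.8% of all genes. Its difference of -1.71 ± 0.36 was as large as many that passed, and the wide pairs left it outside the threshold (adjusted p = 0.0728). Ankrd1, a relative of Ankrd2, read 5.41 and 5.68 on the control arrays and 4.03 and 3.95 on the suspension arrays and did not pass (difference -1.55 ± 0.56, adjusted p = 0.282), although its pairs were tight, since the spread of the arrays with electroacupuncture also enters its error. Abra, also called STARS, which couples actin to gene activation by SRF and is on no list, read 8.99 and 9.82 on the control arrays and 7.39 and 7.89 on the suspension arrays. It fell by 1.76 ± 0.26 (adjusted p = 0.0234). Without suspension array 1 or without array 2, 0 of the listed stretch genes passed, and the median was -0.25 and -0.30.

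Nr4a3, an orphan nuclear receptor switched on by contraction and adrenergic signals, read 5.49 and 6.04 on the control arrays and 3.65 and 3.49 on the suspension arrays. The suspension arrays were near the background percentile of 3.50, and array 2 was just under it. The gene fell by 2.20 ± 0.21 as measured (adjusted p = 0.00513), and with that array set to the percentile it was at least 4.58-fold lower. Of 31 immediate early genes it was the only faller and Klf10, a Krüppel-like factor, the only riser, by 1.09 ± 0.16 (median -0.06). Among 26 genes listed for cyclic AMP and CREB, whether targets or not, 4 fell: Nr4a3, Ppargc1a, Ppp1r3c and Id1. Id1, an inhibitor of helix-loop-helix factors, fell by 1.21 ± 0.18. The 1 riser was Mc5r, a melanocortin receptor, which read 4.30 and 4.36 on the control arrays and 6.27 and 6.05 on the suspension arrays and rose by 1.83 ± 0.19 (adjusted p = 0.00618). The list median was -0.08, turning to 0.04 without control array 2. The letters TGACGTCA were upstream of 0 of the 3 genes past the test on this list with a tabulated promoter. They were upstream of 3 of the 19 list genes with one and of 1.77% of all genes in the table.

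Several chaperones and their helpers fell. Of 36 heat shock proteins and cochaperones, 5 fell and 0 rose. In the list 30 differences were below 0, where 48.86% of all genes lay below 0, and the median was -0.35. The groups did not overlap in 26 genes below and 3 above, beside 18.5% and 21.3% of all genes. Hspa1l, a relative of the inducible chaperone gene Hspa1a, read 8.14 and 8.25 on the control arrays and 6.62 and 6.51 on the suspension arrays, and fell by 1.62 ± 0.17 (adjusted p = 0.00618). The J-protein Dnajb4, which hands unfolded proteins to such chaperones, read 9.45 and 9.35 on the control arrays and 8.16 and 8.38 on the suspension arrays and fell by 1.13 ± 0.13 (adjusted p = 0.0102). Both had tight pairs. Another J-protein, Dnaja4, fell by 0.86 ± 0.13, the small heat shock protein Hspb7, which works with filamin C, by 1.02 ± 0.15, and Hsph1, a nucleotide exchange factor of the family, by 1.00 ± 0.18.

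Hspa1a, the inducible member itself, read 7.53 and 7.59 on the control arrays and 6.65 and 6.18 on the suspension arrays. The groups did not overlap, as in 39.8% of all genes, and with -1.14 ± 0.28 it did not pass (adjusted p = 0.113). It is nearly identical to a neighbouring copy and resembles Hspa1l, and the share of each in these signals was not tested. Without suspension array 1, 0 of the listed genes passed, and without suspension array 2, 2 did, with medians of -0.31 and -0.35. The heat shock element in 3 units was in the tabulated promoters of 0 of the 5 fallers and 3 of the 31 list genes with one, against 139 of the 27025 genes in the table (0.514%).

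Some factors that act on capillaries fell. Vegfa, the main growth factor for blood vessels, read 8.54 and 8.96 on the control arrays and 7.22 and 7.54 on the suspension arrays. Both suspension arrays were well below both controls, and it fell by 1.37 ± 0.17 (adjusted p = 0.0131), 2.58-fold. Vegfb, a related factor tied to oxidative tissue, fell by 0.73 ± 0.14 (adjusted p = 0.0474), and Adamts1, a matrix protease that limits vessel growth, by 1.28 ± 0.18. These were 3 of 26 (median -0.15), and 0 rose. Of receptors and vessel genes on no list and picked out afterwards, the proton-sensing receptor Gpr4 fell by 0.90 ± 0.15, the thrombin receptor F2r by 0.84 ± 0.14 and Tmem204, a membrane protein of vessels, by 0.95 ± 0.13. Among markers of endothelial cells, whose part in these falls was not tested, 0 of 10 passed the limma test. At an unadjusted limma p below 0.05 there were 2, in opposite directions, beside 2537 of all 19938 genes. The median was 0.02, turning to -0.14 without control array 1 and -0.05 without suspension array 1. The VEGF receptor genes Kdr (-0.59 ± 0.17, adjusted p = 0.158) and Flt1 (-0.32 ± 0.15, adjusted p = 0.406) were lower and the junction gene Cldn5 (0.40 ± 0.16, adjusted p = 0.361) higher, without passing. Their groups did not overlap, as in 39.8% of all genes. The mean level of these markers was 7.24 and 7.45 on the control and 7.37 and 7.26 on the suspension arrays.

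Most clock genes were slightly higher in suspension. Of 21 measured, 19 had differences above 0 and 2 below 0 (median 0.32), where 48.86% of all genes lay below 0. The 1 that passed (4.76%, beside 1.05% of all genes) was Rora, a nuclear receptor that activates Bmal1. Rora read 6.83 and 6.66 on the control arrays and 7.66 and 7.51 on the suspension arrays and rose by 0.84 ± 0.13 (adjusted p = 0.0280). Nr1d1, the repressor that opposes Rora, read 9.41 and 9.97 on the control arrays and 10.76 and 10.55 on the suspension arrays. It did not pass (difference 0.97 ± 0.20, adjusted p = 0.0667), and its groups did not overlap, as in 39.8% of all genes. The labels give no time of day for either group.

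**Figure D4:**
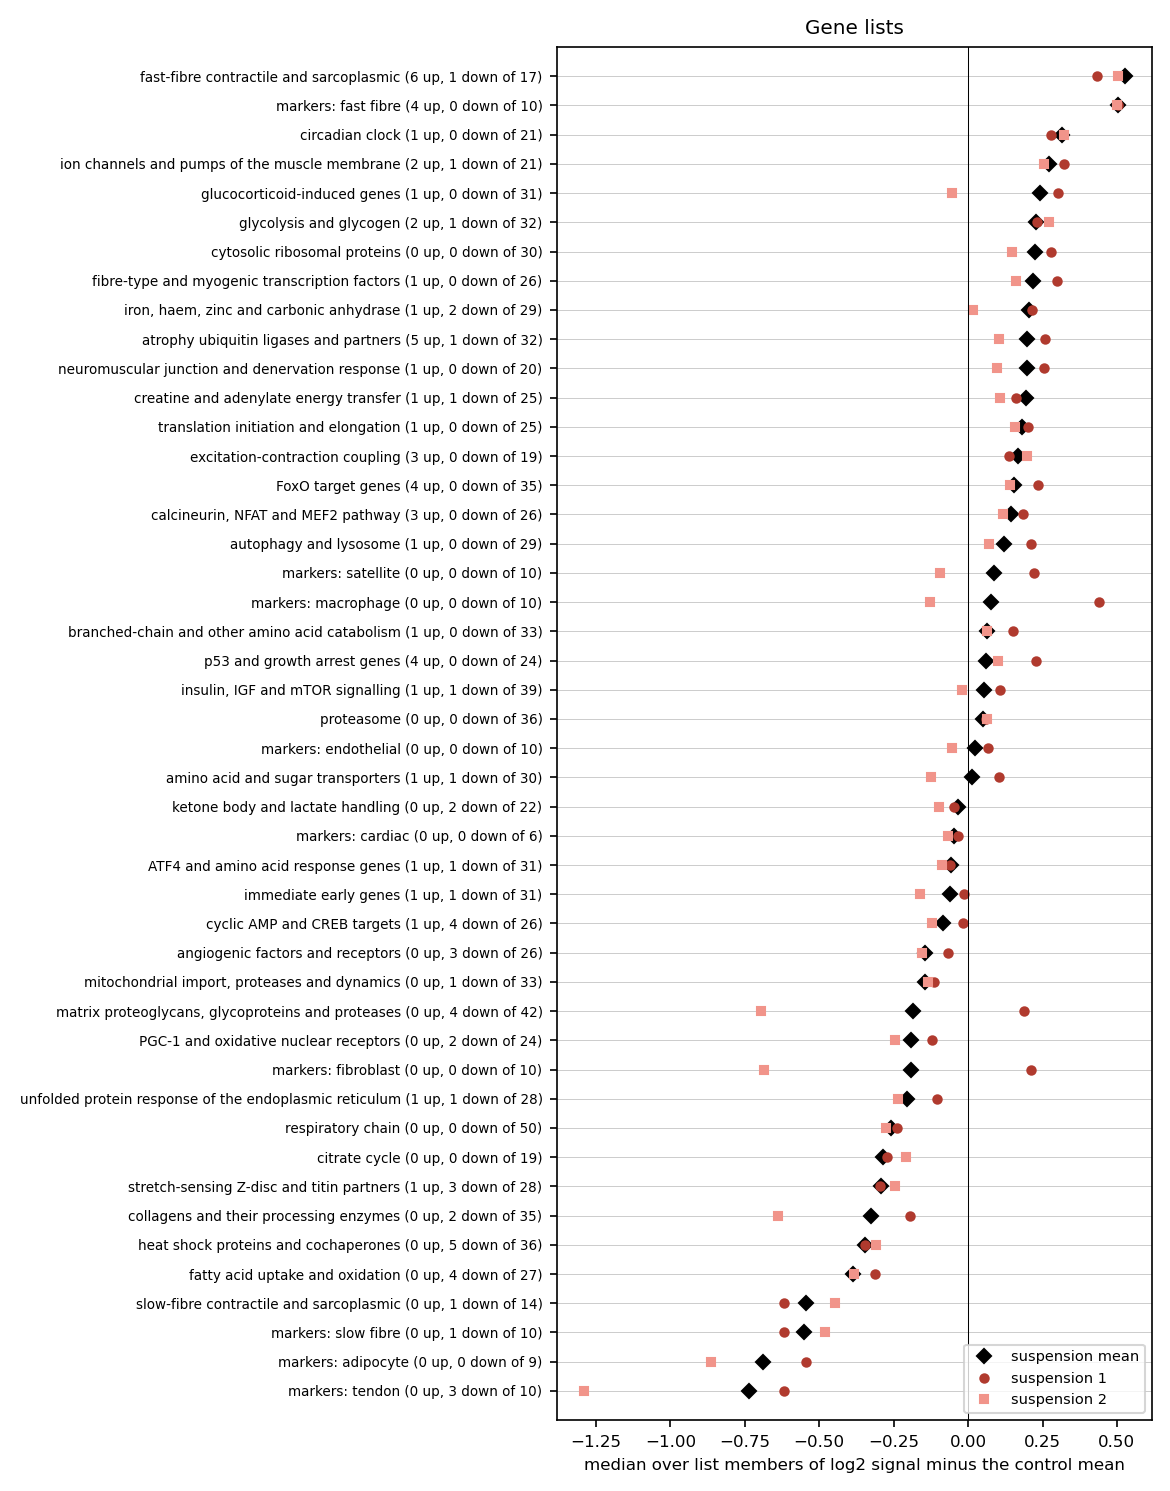
Median over the measured members of each described list of the log2 signal minus the control mean (x axis), for the mean of the suspension arrays (black diamonds) and for each suspension array (red). The counts beside each name are genes past adjusted p 0.05. Fast-fibre lists lie highest and tendon, adipocyte and slow-fibre lists lowest, and the suspension arrays part most for matrix, fibroblast and tendon lists.

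Some tendon genes fell. Of 10 tendon markers, 3 fell and 0 rose, and the median was -0.74. Chad, chondroadherin, read 9.78 and 9.42 on the control arrays and 6.87 and 7.36 on the suspension arrays. Kera, keratocan, read 6.42 and 6.11 on the control arrays and 4.14 and 4.21 on the suspension arrays. Tnmd, tenomodulin, a membrane protein of tendon cells, read 7.90 and 8.00 on the control arrays and 5.92 and 6.10 on the suspension arrays. In all 3 both suspension arrays lay far below both controls. Chad fell by 2.48 ± 0.23 (adjusted p = 0.00496), Kera fell by 2.09 ± 0.19 (adjusted p = 0.00496) and Tnmd fell by 1.94 ± 0.15 (adjusted p = 0.00307), and each kept its call without either suspension array. The mean level of the tendon markers was 7.62 and 7.59 on the control arrays and 6.85 and 6.25 on the suspension arrays. How much tendon was taken with each muscle was not tested.

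Other matrix genes also fell. Of 42 matrix proteoglycans, glycoproteins and proteases, 4 fell and 0 rose (median -0.18). They included Chad, already counted among the tendon markers, and Mfap4, a microfibril protein, which fell by 0.97 ± 0.15. Of 35 collagens and their processing enzymes, 2 fell (median -0.33): Col12a1, a collagen that coats fibrils, by 0.94 ± 0.17, and P4ha1, which hydroxylates collagen chains, by 0.91 ± 0.16. With each array left out in turn, 2 genes of the collagen list passed without suspension array 1 (median -0.64) and 0 without any other array (median -0.19 without suspension array 2). Cpxm2, a carboxypeptidase-like protein, read 7.81 and 7.79 on the control arrays and 6.38 and 5.85 on the suspension arrays and fell by 1.69 ± 0.19 (adjusted p = 0.00854). Reln, the secreted glycoprotein reelin, read 6.22 and 6.45 on the control arrays and 4.94 and 4.55 on the suspension arrays and fell by 1.59 ± 0.17 (adjusted p = 0.00753). Both suspension arrays lay below both controls in each. Itgbl1, an integrin-like secreted protein, and Npnt, a basement membrane ligand of integrins, both chosen after their values were seen, fell by 0.94 ± 0.17 and 0.95 ± 0.17.

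For other matrix genes the suspension arrays parted from each other. Mmp13, a collagen-cutting protease, read 3.35 and 2.88 on the control arrays and 10.02 and 4.09 on the suspension arrays, so that only suspension array 1 was high, and the difference of 3.94 ± 1.44 did not pass (adjusted p = 0.290). Serpina3n, a secreted protease inhibitor, read 5.55 and 6.47 on the control arrays and 10.07 and 6.25 on the suspension arrays, again high in suspension array 1 alone. Fibronectin, Fn1, read 9.39 and 9.74 on the control arrays and 10.85 and 7.92 on the suspension arrays, with the suspension arrays on either side of the controls. Timp1, an inhibitor of matrix proteases, and Ctsk, the collagen-cutting cathepsin K, showed the same order, with 6.98 and 4.04 and 7.15 and 4.40 on suspension arrays 1 and 2. Col1a1, the main fibrillar collagen, read 9.41 and 9.01 on the control arrays and 8.48 and 6.69 on the suspension arrays and did not pass (difference -1.62 ± 0.45, adjusted p = 0.157). Without suspension array 2 the matrix list had 4 higher and 2 lower genes past the test and a median of 0.19, and without suspension array 1 it had 0 and 3 and a median of -0.70.

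**Figure D5:**
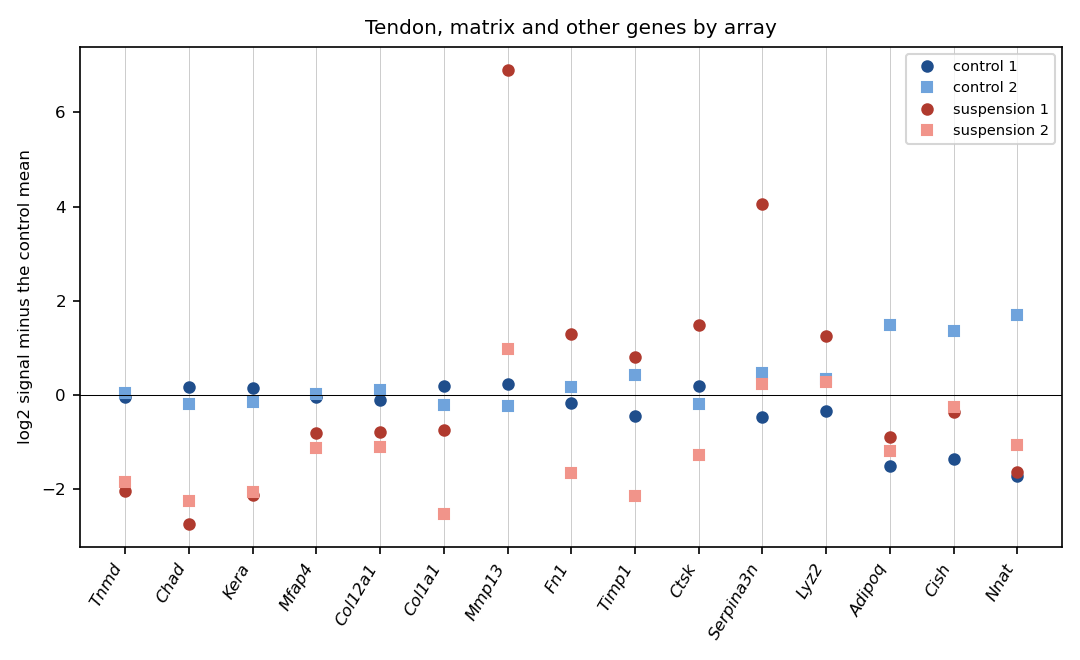
Log2 signal minus the control mean (y axis) of 15 tendon, matrix and other genes on each of the 4 arrays (blue control, red suspension). Tnmd, Chad and Kera are low on both suspension arrays, whereas Mmp13 and Serpina3n are high on suspension array 1 alone, and the control arrays part for Adipoq, Cish and Nnat.

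Markers of other cells went with these differences between arrays, and their part in the results was not tested. The mean level of 10 fibroblast markers was 7.62 and 7.76 on the control arrays, 7.83 on suspension array 1 and 6.65 on array 2. For 10 macrophage markers it was 5.26, 5.60, 5.95 and 5.28 in the same order, with suspension array 1 the highest. For 9 adipocyte markers it was 6.40, 8.04, 6.67 and 6.48, with control array 2 the highest. In these 3 lists 0 genes passed the limma test. At an unadjusted limma p below 0.05 there were 5 fibroblast, 0 macrophage and 1 adipocyte markers, beside 2537 of all 19938 genes. The fat-cell hormone gene Adipoq read 5.10 and 8.09 on the control arrays and 5.71 and 5.42 on the suspension arrays, and the groups overlapped. Cish, a feedback inhibitor of cytokine signalling, read 4.73 and 7.44 on the control arrays and 5.72 and 5.83 on the suspension arrays, and Nnat, a small proteolipid of the endoplasmic reticulum, read 5.16 and 8.58 on the control arrays and 5.25 and 5.80 on the suspension arrays: control array 2 was the highest in both. Adipocyte markers had a median of -0.69, which turned to 0.18 without control array 2, the array that holds the high values.

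The labelled tissue was checked on its markers: slow and fast fibre markers lay far above the background percentile on all 4 arrays, with mean levels from 10.66 on suspension array 1 to 11.45 on control array 2 for the 10 slow markers and from 11.09 on control array 2 to 12.05 on suspension array 2 for the 10 fast markers. The 6 cardiac markers had mean levels of 5.20 and 5.27 on the control arrays and 5.15 and 5.13 on the suspension arrays, and the control mean of each was above the background percentile. Among them Nppa read 3.64 and 3.58 on the control arrays and 3.61 and 3.50 on the suspension arrays, near that percentile, and the cardiac myosin gene Myh6 read 6.21 and 6.21 on the control arrays and 5.72 and 5.74 on the suspension arrays, above it, a difference of -0.48 ± 0.21 that did not pass (adjusted p = 0.379). Satellite cell markers had 0 genes past the limma test of 10 and a median of 0.09. At an unadjusted limma p below 0.05 there were 3, beside 2537 of all 19938 genes. Pax7, which marks these muscle stem cells, differed by 0.16 ± 0.14 (adjusted p = 0.737).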

How the data were processed

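The authors deposited log2 signals of 35556 transcript clusters, computed with RMA in Affymetrix Expression Console per the submitters' processing notes, with no version given. RMA subtracts background, quantile-normalizes arrays and summarizes probes, so array medians (4.13 to 4.19) carry no measure of total RNA. The genome build is not given in the sources used here. The log2 values were used as deposited, and 0 columns were left out.

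Clusters with 1 gene symbol in GEO's platform annotation (21789) were kept, and 1621 with several and 12146 with no listed gene were left out. Entrez IDs matched 21698 to RefSeq, which changed 0 symbols. For 999 symbols with several clusters the one of highest mean signal was taken, leaving 19938 genes with no filter on signal.

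A linear model over all 6 arrays, by group, was fitted with limma 3.58.1 (lmFit and eBayes with a trend) in R 4.3.3, with two-sided p-values, Benjamini-Hochberg adjustment over 19938 genes and a threshold of 0.05. It was also run on simulated data that followed the model's own assumptions, so that run does not test those assumptions. Gene lists (67, written from general knowledge) were described by counts and medians, with no test. The comparison, its genes and the lists were chosen with earlier results of these data known. Genes were named by a rule: the 30 largest rises and 30 largest falls among called genes without overlap between groups, up to 3 members of each list with the smallest p, a fixed set of genes of interest, and the 5 most variable bright genes between the arrays of each group. Symbols of clones and predicted genes were skipped. Genes said to be noticed or picked out afterwards, and Id1, Hadha, Flnc, Dnaja4, Hsph1, Mfap4, Klhl38 and Ube4a, fell outside it, chosen after the values were seen. Sequences come from RefSeq tables on GRCm38.p6, where motifs were matched in the 250 bases before each start. Alternatives were other variance priors, array weights, scalings, filters and cluster rules, the 4 arrays alone, a replicate block, a looser threshold and each array left out.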

Additional observations from a re-analysis of the deposited data

How the results depend on the processing

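The 209 calls (107 higher, 102 lower) moved by over 1.5 times under several settings. There were 80 (36 and 44) without a trend in limma's variance prior, 130 (71 and 59) with array weights and 68 (33 and 35) with the 4 arrays alone. At adjusted p 0.1 there were 482 (232 and 250), and cyclic loess gave 137 higher and 158 lower. With all 35556 clusters tested, 1 passed (0 higher, 1 lower), and limma's prior degrees of freedom were 3.07 in place of 5.88. With each array left out in turn, the total ran from 16 to 301, the higher from 5 to 207 and the lower from 11 to 142. The cause of these shifts was not tested. The robust prior, quantile normalization again, median centring, the mean of clusters and the filter at the median signal kept the total within 1.5 times. All 209 kept their sign wherever tested, which only the scalings and the mean of clusters could have turned. Of 127 called genes named here, 11 kept the call without suspension array 1 and 29 without array 2. Of 46 lists described, 1, amino acid and sugar transporters (median 0.01) turned the sign of its median under another scaling (-0.01 with quantile normalization again), and 13 lists did so without an array. Differences that changed sign without an array ran from -2.53 to 0.46 for Adipoq, -1.66 to 1.04 for Cish, -1.27 to 1.49 for Ctsk, -1.65 to 1.29 for Fn1, -0.73 to 0.22 for Igf1, -0.04 to 0.32 for Musk (-0.036 without control array 2), -0.34 to 0.05 for Myh7 (0.053 without control array 2), -0.04 to 0.26 for Myog (-0.045 without suspension array 1), -3.06 to 0.37 for Nnat, -0.10 to 0.0001 for Nppa, -2.14 to 0.80 for Timp1 and -0.10 to 0.41 for Trim63.

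Replicate numbers are shared by the groups, but the labels do not tie them to animals, litters or days. The difference between arrays 1 and 2 correlated over genes at -0.16 between the control and suspension groups and at 0.02 and -0.02 with the electroacupuncture group. With the replicate block 102 genes passed (49 higher, 53 lower), 99 of them shared with the fit without it. A crossed pairing of the suspension arrays, added after seeing the data, gave 266 calls (134 higher, 132 lower).

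Precision is limited by 2 arrays a group, with a median SE of 0.173. Of the called genes, 4 had a control mean below the background percentile of 3.50. Groups of 2 are too small for a test of outlying arrays.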

Other observations

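Of the 209 genes past the test, 87 stood on at least 1 of 67 gene lists and 122 on none. Several of the 122 were among the 30 largest changes in a direction. Of the risers, Sh3rf2, a ring-finger protein with SH3 domains, read 7.76 and 7.48 on the control arrays and 9.21 and 9.11 on the suspension arrays and rose by 1.54 ± 0.14. Inmt, a methyltransferase of indole amines, rose by 1.50 ± 0.17, Sv2b, a synaptic vesicle protein, by 1.53 ± 0.18, and Cyp27a1, the sterol 27-hydroxylase of mitochondria, by 1.34 ± 0.14. Aox1, an aldehyde oxidase, rose by 1.32 ± 0.20, and Map2k3, a kinase that activates p38, by 1.22 ± 0.15. Both suspension arrays lay above both control arrays in each, as the groups did not overlap in any of the 209 genes that passed.

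Among the fallers, Npr3, the clearance receptor for natriuretic peptides, read 7.18 and 7.63 on the control arrays and 5.77 and 6.23 on the suspension arrays and fell by 1.41 ± 0.20. Nlrc3, a member of the NOD-like receptor family, fell by 1.48 ± 0.20, Rbp7, a retinol-binding protein, by 1.41 ± 0.22, and Tnfrsf12a, the receptor of the cytokine TWEAK, by 1.45 ± 0.24. Lgi1, a secreted leucine-rich protein known from brain, read 8.76 and 8.42 on the control arrays and 7.15 and 7.54 on the suspension arrays and fell by 1.25 ± 0.21, and the adaptor gene Dok5 fell by 1.23 ± 0.21. Ccnd1, cyclin D1, fell by 1.14 ± 0.19. Ccnd1 and Tnfrsf12a stand on lists of the cell cycle and of cytokine response, the others of both paragraphs on none. Among genes noticed after their values were seen, Egf, the epidermal growth factor gene, rose by 1.10 ± 0.15, Gprc5c, an orphan receptor, by 1.02 ± 0.15, and Fmo2, a flavin monooxygenase, by 0.83 ± 0.14.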
